A study of Mus musculus with 27 samples.

Results

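The comparison described here was made in confluent 3T3-L1 cells that had not yet received the adipogenic mixture, between 3 arrays of cells carrying a Flag-tagged ISL1 construct and 3 arrays of cells carrying the empty pMIG vector, a retroviral vector. These 6 arrays were chosen by their titles among the 27 of the series, and all 19938 genes that the arrays measure under 1 name were compared. 3T3-L1 is a mouse fibroblast line used as a model of preadipocytes, and ISL1 is a LIM-homeodomain transcription factor. Both groups were grown in 10% serum and 10% CO2 and sampled 2 days after confluence, just before the mixture (0 h). The labels call the ISL1 cells overexpressing and give no promoter, no clone and no measure of the protein. The other 21 arrays held vector cells at 0.5, 1, 2, 4 and 8 h, and cells labelled ISL1 or vector at 48 h, all treated with insulin at 350 nM, isobutylmethylxanthine at 0.5 mM, dexamethasone at 250 nM and biotin at 400 nM. The submitters describe triplicates as biological without saying what separates them. The p-values use a spread within groups that is pooled over all 27 arrays. They do not measure a spread between separately made cell populations. Whether each group came from a single transduced population is not stated. Effects of ISL1 and other differences between the cell populations therefore cannot be told apart.

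Preadipocytes are committed fibroblasts that can be turned into fat cells by hormones. BMP4, a secreted ligand of the transforming growth factor family, promotes that commitment. C/EBP factors and the nuclear receptor PPARG then switch on genes of fat storage. ISL1 is best known from motor neurons and heart progenitors, where it acts with the LIM-binding cofactor LDB1. The series asks, per its title, how ISL1 bears on PPARG activity and on early adipogenesis through BMP4 and by other routes, and the 0 h arrays give the state of the cells from which that process starts.

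Values are deposited log2 signals, so a difference of 1 is a 2-fold change, and every difference is ISL1 minus vector with its standard error from limma. A gene was called when its p-value, adjusted over all 19938 genes, was under 0.05. Of the 19938 genes, 5119 were called (25.7%), 3047 of them higher in ISL1 cells (15.3%) and 2072 lower (10.4%). Most of these differences were small: 90.1% of the called genes changed by less than 2-fold. Against a 1.2-fold change 1664 of the 19938 genes passed the test, 959 higher and 705 lower. Among called genes, 296 were at least 2-fold higher and 211 at least 2-fold lower in ISL1 cells, and at 4-fold the counts were 26 and 50. Arrays of the same group correlated at 0.997 to 0.999 and arrays of different groups at 0.983 to 0.985, and the medians of the 6 arrays lay between 7.94 and 7.98. The number of arrays limits the precision of each value.

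**Figure D1:**
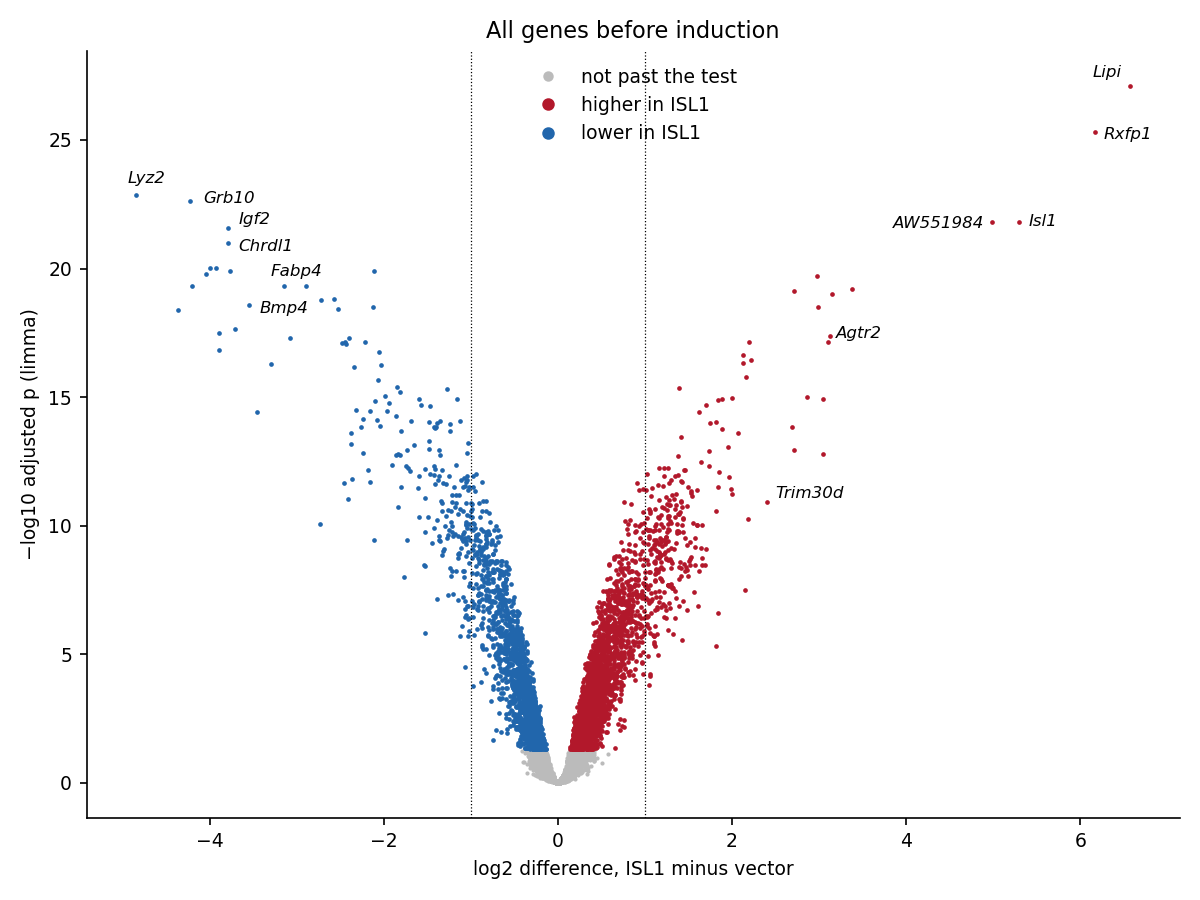
Each point is 1 gene; the x axis is the log2 difference, ISL1 minus vector, before induction and the y axis is −log10 of limma's adjusted p. Red points are called higher in ISL1 (3047), blue points called lower (2072), and grey points are not past the test; the dotted lines mark a 2-fold change, and Lipi, Rxfp1, Isl1 and AW551984 lie far to the right of all other genes.

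The targeted gene separated the groups as labelled. Isl1 signal was 12.64, 12.62 and 12.61 in the ISL1 arrays, against 7.37, 7.47 and 7.17 in the vector arrays. The difference was 5.29 ± 0.107 (SE), or 39.0-fold. Among 23 measured LIM-domain genes and partners of ISL1, its own gene included, 3 were higher and 4 lower (2 and 0 against 1.2-fold). Lmo4, a LIM-only protein that also binds LDB1, was higher by 0.62 ± 0.073. Ldb1, the cofactor that bridges LIM factors, differed by -0.31 ± 0.050 and Ssbp3, which stabilises LDB1, by -0.35 ± 0.053; both passed the main test and not the test against a 1.2-fold change. Of the genes linked to ISL1 in the heart and pharynx, 2 of 29 were higher and 4 lower, with a median difference of -0.02, and without ISL1 replicate 2, vector replicate 1 or vector replicate 2 the lower count was 2; against 1.2-fold 0 were higher and 1 lower. Of the neuronal genes linked to ISL1, 2 of 29 were higher and 3 lower, again with a median of -0.02. Over all genes the shares were 15.3% higher and 10.4% lower. Slc5a7, the choline transporter of cholinergic neurons, stood apart in that list at 12.09, 12.01 and 11.98 in ISL1 arrays, against 10.58, 10.51 and 10.41 in vector arrays.

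Lipi and Rxfp1 were bright in ISL1 cells and had a mean signal under 6 in vector cells. Lipi, a secreted phospholipase of the pancreatic lipase family, gave 11.94, 11.89 and 11.88 in ISL1 arrays, against 5.39, 5.33 and 5.28 in vector arrays. Rxfp1, the receptor of relaxin, gave 12.11, 12.14 and 12.10 in ISL1 arrays, against 6.01, 5.96 and 5.86 in vector arrays. AW551984, a gene with no role given here, gave 12.44, 12.41 and 12.43 in ISL1 arrays, against 7.59, 7.45 and 7.28 in vector arrays. The differences were 6.57 ± 0.075 for Lipi, 6.17 ± 0.086 for Rxfp1 and 4.99 ± 0.101 for AW551984, and the groups did not overlap. The deposited values carry no detection call, so signals under 6 are not shown to be above background. Of the 20 largest rises 6 had a vector mean under 6 (Lipi, Rxfp1, Chl1, Scn7a, Chn1 and Il1rapl1), and their differences are those between deposited signals, with no order drawn from them; of the 20 largest falls, Cd36 had an ISL1 mean under 6. Vector cells at 0.5 to 8 h of the mixture stayed between 5.24 and 5.32 for Lipi and between 5.71 and 5.84 for Rxfp1.

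The other large rises are described gene by gene, and no theme among them was tested. Agtr2, the type 2 angiotensin II receptor, gave 11.16, 11.21 and 11.25 in ISL1 arrays, against 8.03, 8.07 and 8.24 in vector arrays. Npy1r, a neuropeptide Y receptor, was higher by 2.69 and reached 11.78, 11.83 and 11.69 in ISL1 arrays, against 8.97, 9.20 and 9.08 in vector arrays. Epha6, an ephrin receptor, was higher by 3.15, the neural adhesion gene Chl1 by 3.13, the netrin-G ligand gene Lrrc4c by 3.04 and the leucine-rich repeat gene Lrrn3 by 3.38. The sodium channel gene Scn7a was higher by 2.99 and the inward rectifier potassium channel gene Kcnj2 (vector mean 5.13, also under 6) by 1.96, while Gria3, a glutamate receptor subunit, was lower by 2.37. Cyfip2, a subunit of the actin-regulating WAVE complex, was higher by 2.98 and Chn1, a Rac-regulating protein of growing axons, by 2.22. Il1rapl1, a synaptic adhesion gene, was higher by 2.16, and the calcium sensor gene Kcnip3 by 2.19. Lypd6, Zdhhc2 (a palmitoyl transferase) and Ccdc141 completed the 20 largest rises outside the interferon genes, at 2.71, 2.71 and 3.04. The list of axon guidance genes as a whole had 8 of 44 higher and 16 lower; without ISL1 replicate 2 the lower count was 10, and against 1.2-fold the counts were 5 and 9. Sema6a and the receptor gene Plxna4 were among the higher members at 1.99 and 1.81, with Sema6d, another membrane semaphorin, at 12.11, 12.11 and 12.12 in ISL1 arrays, against 10.15, 9.90 and 9.94 in vector arrays. The repellent Slit2 and the attractant Ntn1 lay lower, by 1.11 ± 0.068 and 1.13 ± 0.075. Of 40 channel and transporter genes of excitable cells, 6 were higher and 4 lower (15.0% and 10.0%), close to the shares of all genes (15.3% and 10.4%).

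**Figure D2:**
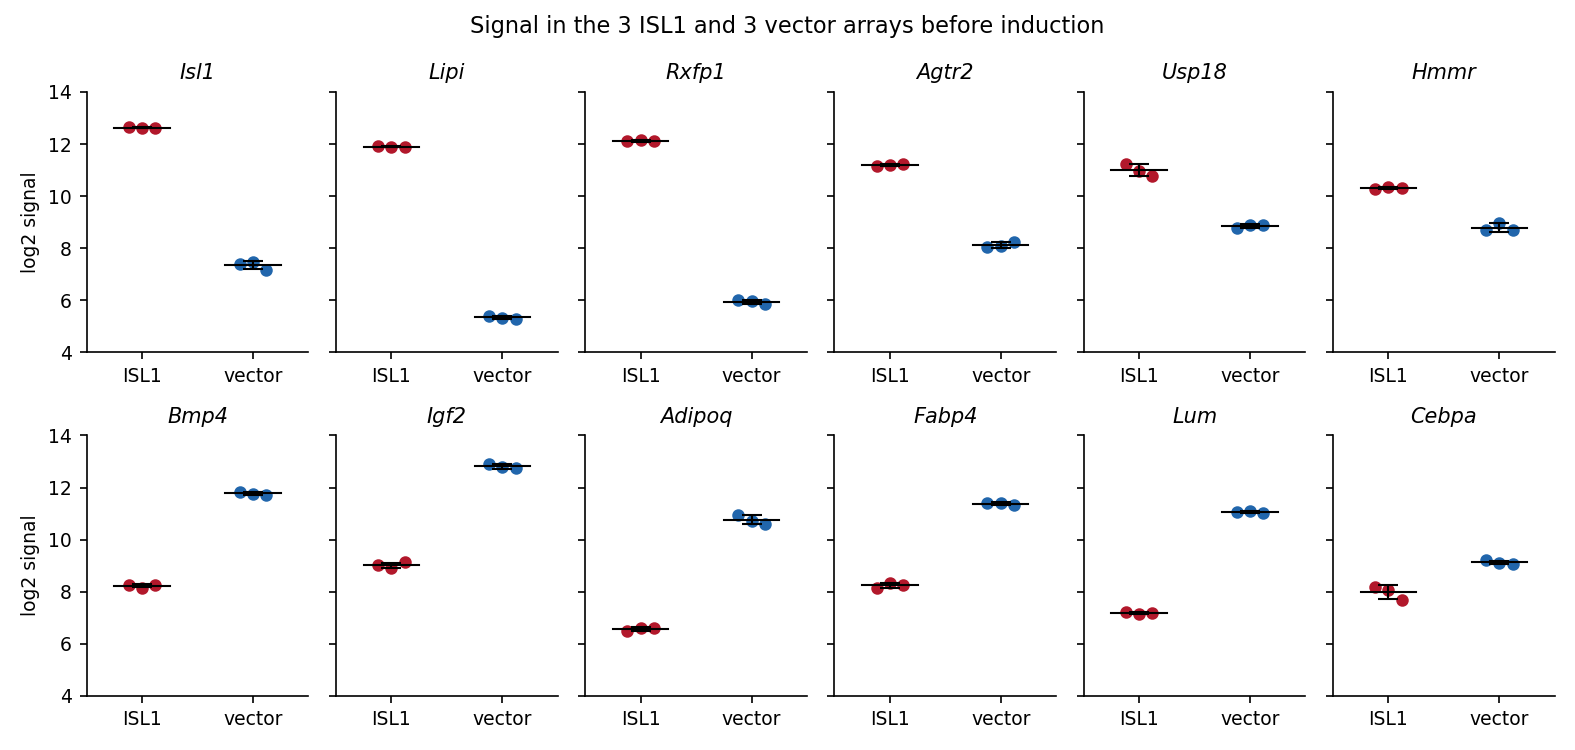
Log2 signal of 12 genes in the 3 ISL1 arrays (red, left) and the 3 vector arrays (blue, right) before induction, with the group mean (line) and SD (bar). Isl1, Lipi, Rxfp1, Agtr2, Usp18 and Hmmr were higher in every ISL1 array, and Bmp4, Igf2, Adipoq, Fabp4, Lum and Cebpa lower.

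Genes of the fat cell were lower in ISL1 cells before any inducer had been added. Of 27 measured adipocyte genes 21 were lower and 1 higher, where 10.4% of all genes were lower; 16 of the 21 passed the test against a 1.2-fold change, 9 were at least 2-fold lower, and the list's median was -0.69, against -0.01 over all genes. Without vector replicate 1 the higher count was 2. The mean level over the list was 9.04 to 9.10 in ISL1 arrays, against 10.26 to 10.42 in vector arrays. The lower members included genes for hormones, fatty acid carriers and enzymes of triglyceride synthesis. Adipoq, which encodes the hormone adiponectin, gave 6.47, 6.60 and 6.62 in ISL1 arrays, against 10.94, 10.73 and 10.60 in vector arrays. Fabp4, the main fatty acid carrier of fat cells, gave 8.14, 8.33 and 8.24 in ISL1 arrays, against 11.40, 11.42 and 11.32 in vector arrays. Gpd1, which makes the glycerol backbone of triglycerides, gave 7.67, 7.91 and 7.62 in ISL1 arrays, against 11.57, 11.55 and 11.39 in vector arrays. The groups did not overlap in any of these, and the falls ran from 8.85-fold for Fabp4 to 18.3-fold for Adipoq. Car3, a carbonic anhydrase abundant in fat, was lower by 3.89 ± 0.137, the fatty acid transporter Cd36 by 3.45 ± 0.158 and the adipokine resistin gene Retn by 3.08 ± 0.103. Lgals12, a galectin of the lipid droplet, was lower by 3.71. Fabp5, a fatty acid carrier not restricted to fat cells, was the called member that went the other way, at 11.32, 11.43 and 11.43 in ISL1 arrays, against 10.76, 10.74 and 10.59 in vector arrays. The 20 largest falls also held genes outside this list: the small GTPase gene Rab12 was lower by 3.99, the neural gene Brinp3 by 3.29, the cytochrome P450 gene Cyp2f2 by 2.89 and the dipeptidase gene Dpep1 by 2.72. In bulk RNA, fewer cells of a type and less RNA per cell cannot be told apart.

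The transcription factors of adipogenesis leaned lower, with exceptions. Among all genes 15.3% were higher and 10.4% lower. Of 25 measured, 12 were lower, 3 were higher and 10 did not pass the test, with a median of -0.24. Against a 1.2-fold change 7 were lower and 1 higher. Cebpa, which maintains the adipocyte programme, gave 8.18, 8.07 and 7.68 in ISL1 arrays, against 9.20, 9.10 and 9.06 in vector arrays, a difference of -1.14 ± 0.101. Pparg, the master regulator, gave 11.43, 11.37 and 11.39 in ISL1 arrays, against 11.86, 11.72 and 11.75 in vector arrays. That Pparg difference of -0.38 ± 0.060 separated the groups and had an adjusted p of 1.74e-05 in limma, but it did not pass the test against a 1.2-fold change. Cebpd, an early C/EBP factor, was lower by 0.77 ± 0.086. Cebpb, the other early factor, overlapped between groups, with 9.16, 9.21 and 9.05 in ISL1 arrays, against 9.27, 9.18 and 8.95 in vector arrays (difference 0.00 ± 0.086). The Krüppel-like factors differed in direction: Klf4 was lower by 1.06 and Klf9 by 0.86, while Klf5 was higher by 0.65. Among 25 repressors of adipogenesis 11 were lower and 3 higher, with 6 and 2 past the test against 1.2-fold. The called higher members included Gata3, which holds preadipocytes back, at 9.28, 9.39 and 8.88 in ISL1 arrays, against 7.93, 8.05 and 7.86 in vector arrays. Nr2f1 was higher by 1.11 ± 0.112, and Hes1, the Notch effector, was lower by 1.10 ± 0.090.

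Bmp4 stood out among the BMP ligands. Its signal was 8.26, 8.15 and 8.25 in ISL1 arrays, against 11.83, 11.77 and 11.73 in vector arrays. Gdf10, another ligand of the family, gave 7.82, 7.80 and 7.75 in ISL1 arrays, against 9.09, 8.69 and 8.87 in vector arrays. Of 15 ligands these 2 were lower, where 10.4% of all genes were lower and 15.3% higher, and the median was -0.04. The list also held Bmp1, a procollagen protease and not a ligand of the family, which was lower by 0.27. Of 15 receptors and Smads 6 were lower and 1 higher, 3 of the 6 past the test against 1.2-fold, led by the type I receptor gene Acvrl1 at -0.86 ± 0.089. Of 17 extracellular or membrane antagonists 8 were lower and 1 higher, 5 of the 8 past the test against 1.2-fold. Chrdl1, a secreted BMP-binding protein of the chordin family, was lower by 3.79 ± 0.084, with 7.74, 7.34 and 7.55 in ISL1 arrays, against 11.34, 11.33 and 11.32 in vector arrays. Nbl1 was lower by 1.33 ± 0.078, and Grem1, a secreted BMP antagonist, was higher, with 13.58, 13.51 and 13.56 in ISL1 arrays, against 12.99, 12.80 and 12.69 in vector arrays. Of 19 target genes of BMP signalling 8 were lower and 1 higher, 6 of the 8 past the test against 1.2-fold. The inhibitor-of-DNA-binding genes Id2 and Id3 were lower by 0.77 ± 0.071 and 0.56 ± 0.076, and the Notch and BMP target Hey1 by 1.15 ± 0.103. Id1, at -0.44 ± 0.085, did not pass the test against a 1.2-fold change, and the higher member, Msx1 at 0.24, lost its call when any of 5 of the 6 arrays was left out (every array but ISL1 replicate 3).

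Promoter windows were examined because ISL1 binds DNA through a homeodomain, and LIM-homeodomain proteins bind sites with a TAAT core. RefSeq windows of 250 bases before to 50 after each start (GRCm38.p6) were searched on both strands for 3 short motifs. The first was CTAATG. The second was TAATTG, with its reverse complement. The third was TAATTA, which reads alike on both strands. A stretch of bases can match more than 1 of them. At least 1 of the 3 was found in 15.2% of the windows of all genes tested, in 13.7% of those of genes at least 2-fold higher in ISL1 cells and in 18.8% of those of genes at least 2-fold lower. CTAATG alone was in 4.32% of the windows of the higher genes and 10.1% of those of the lower genes, against 6.0% of all. For TAATTG these shares were 8.27% and 6.73%, against 6.6% of all. For TAATTA they were 2.16% and 2.88%, against 4.25% of all. The 3 motifs thus did not share a direction. Over all called genes, whatever their fold, at least 1 motif was in 10.7% of the windows of the higher and 12.4% of those of the lower genes, below the share of all windows. A match is a description of letters and not a binding site. Of the 20 genes with the largest falls 13 had a window examined. Of these 13, 6 held at least 1 motif in any of their windows. Of the 20 with the largest rises it was 4 of 15. Some of these genes have several windows, which can overlap. The share of genes with a motif over all genes was not computed. These counts of genes therefore cannot be set against the shares of windows above. The windows shown are those of the largest fall (Lyz2), the adipocyte gene that fell most (Adipoq) and the BMP ligand (Bmp4). They are written 5′ to 3′ on the gene's strand, with matches in capitals; Adipoq holds CTAATG, and Lyz2 and Bmp4 hold none of the 3.
Lyz2 (chr10:117282223-117282522, - strand): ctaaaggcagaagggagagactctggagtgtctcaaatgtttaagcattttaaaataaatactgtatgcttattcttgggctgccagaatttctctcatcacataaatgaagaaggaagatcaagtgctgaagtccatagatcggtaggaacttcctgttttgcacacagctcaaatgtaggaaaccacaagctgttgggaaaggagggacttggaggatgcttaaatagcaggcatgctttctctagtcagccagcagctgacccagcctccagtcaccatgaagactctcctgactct
Adipoq (chr16:23146286-23146585, + strand): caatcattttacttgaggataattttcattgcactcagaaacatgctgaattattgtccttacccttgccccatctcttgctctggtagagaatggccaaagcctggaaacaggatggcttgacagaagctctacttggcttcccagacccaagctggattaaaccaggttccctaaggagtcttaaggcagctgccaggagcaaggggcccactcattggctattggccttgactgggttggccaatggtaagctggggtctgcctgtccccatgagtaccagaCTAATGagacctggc
Bmp4 (chr14:46390620-46390919, - strand): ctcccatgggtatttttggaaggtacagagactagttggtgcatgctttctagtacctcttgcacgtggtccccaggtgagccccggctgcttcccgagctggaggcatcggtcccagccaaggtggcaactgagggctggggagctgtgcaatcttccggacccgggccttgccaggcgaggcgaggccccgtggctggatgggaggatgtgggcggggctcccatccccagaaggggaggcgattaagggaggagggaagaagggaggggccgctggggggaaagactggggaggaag

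Insulin-like growth factor genes were the other signalling group with very large falls. Among all genes 10.4% were lower and 15.3% higher. Of 18 measured genes of insulin and IGF signalling 12 were lower and 1 higher (7 of the 12 past the test against 1.2-fold), with a median of -0.38. Igf2, the imprinted fetal growth factor, gave 9.01, 8.92 and 9.12 in ISL1 arrays, against 12.91, 12.78 and 12.74 in vector arrays. Grb10, an imprinted adaptor that restrains insulin receptor signalling, gave 7.25, 7.34 and 7.23 in ISL1 arrays, against 11.56, 11.51 and 11.41 in vector arrays. Those were 13.9-fold and 18.6-fold falls. Igf1 was lower by 1.07 ± 0.067, the docking protein gene Irs1 by 1.38 ± 0.085 and the binding protein gene Igfbp3 by 1.48 ± 0.077. The called higher member, Igfbp6, differed by 0.39 ± 0.076.

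Matrix genes were lower across most of their lists, where 10.4% of all genes were lower and 15.3% higher. Of 36 non-collagen matrix genes 24 were lower and 2 higher, 17 of the 24 past the test against 1.2-fold, with a median of -0.47. With any one of the 6 arrays left out the higher count was 1. Lum, a keratan sulfate proteoglycan that binds collagen fibrils, gave 7.21, 7.13 and 7.17 in ISL1 arrays, against 11.07, 11.10 and 11.02 in vector arrays. Its relatives Prelp and Fmod were lower by 2.12 ± 0.063 and 1.86 ± 0.086, and the microfibril gene Mfap5 by 1.41 ± 0.083. Of 29 collagen genes 16 were lower, with a median of -0.19; 4 passed the test against 1.2-fold, and without ISL1 replicate 2 or vector replicate 1 the count was 10. Col12a1, a fibril-associated collagen, carried the largest of these falls with 9.85, 9.70 and 9.75 in ISL1 arrays, against 12.40, 12.10 and 12.25 in vector arrays. Of 27 matrix proteases and inhibitors 14 were lower and 5 higher; the higher count was 3 without ISL1 replicate 1. The tissue inhibitor Timp3 was lower by 2.07 and the protease Mmp3 by 2.16, while Mmp9, a gelatinase, was higher by 1.28 ± 0.087. TGF-beta ligands and targets had 16 of 24 lower and 1 higher (2 without vector replicate 1), 12 of the 16 past the test against 1.2-fold, with a median of -0.41. The latent TGF-beta binding protein gene Ltbp2 was lower by 1.42 ± 0.085 and Tgfb3 by 0.94 ± 0.075, whereas Tgfb1 was higher by 0.56 ± 0.071.

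Fibroblast markers had the highest mean of the marker lists in both groups. In vector arrays the adipocyte mean also lay well above those of the other cell types. The mean over 7 fibroblast markers (Col1a1, Col1a2, Col3a1, Vim, Pdgfra, Pdgfrb and Thy1) was 12.46 to 12.51 in ISL1 arrays, against 12.92 to 13.02 in vector arrays, and 6 of the 7 were lower. Over 5 adipocyte markers the mean was 7.34 to 7.51 in ISL1 arrays, against 9.69 to 9.88 in vector arrays, and 4 of the 5 were lower. Over 5 markers of macrophages and blood cells it was 6.85 to 6.92 in ISL1 arrays, against 6.89 to 6.96 in vector arrays, and 0 of the 5 were called. Over 4 endothelial markers it was 6.90 to 6.99 in ISL1 arrays, against 6.80 to 6.90 in vector arrays, with 1 of the 4 higher (Tek, with a mean of 7.26 in ISL1 arrays, against 6.70 in vector arrays), and over 5 epithelial markers 7.13 to 7.29 in ISL1 arrays, against 7.19 to 7.32 in vector arrays, with 0 of the 5 called. The part of these shifts in the falls of adipocyte and matrix genes was not tested.

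Developmental signalling outside the BMP pathway leaned lower, with exceptions. Over all genes 10.4% were lower and 15.3% higher. Against 1.2-fold 705 of the 19938 genes were lower and 959 higher. Of 36 Wnt genes 13 were lower and 4 higher (2 higher without vector replicate 2), 7 of the 13 past the test against 1.2-fold. Rspo3, a secreted enhancer of Wnt signalling, was the largest of the rises at 9.22, 8.73 and 8.82 in ISL1 arrays, against 6.93, 6.89 and 6.74 in vector arrays. Of 20 Notch genes 6 were lower, all 6 past the test against 1.2-fold, including the ligand gene Jag1 at 11.07, 10.99 and 11.02 in ISL1 arrays, against 12.13, 11.98 and 11.95 in vector arrays. Of 14 Hedgehog genes 5 were lower (2 against 1.2-fold), led by the co-receptor gene Boc at -1.47 ± 0.065. Of 39 FGF and PDGF genes 17 were lower and 8 higher (11 and 4 against 1.2-fold), with the receptor Fgfr2 lower by 1.27 ± 0.053 and the hepatocyte growth factor receptor Met higher by 1.11 ± 0.130. Hox genes, which mark position along the body axis, had 11 of 37 lower and 1 higher, and 2 of the 11 passed the test against 1.2-fold.

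Nearly all measured genes of mitosis and DNA replication were higher. The cyclin gene Ccnd1, in neither list, was lower by 0.41 ± 0.061. All 33 measured mitosis genes were higher in ISL1 cells, where 15.3% of all genes were; 28 of them were at least 2-fold higher and their median was 1.26. The mean over these genes was 11.23 to 11.25 in ISL1 arrays, against 9.94 to 10.11 in vector arrays. Hmmr, a spindle protein, gave 10.29, 10.36 and 10.31 in ISL1 arrays, against 8.68, 8.97 and 8.71 in vector arrays. Ect2, which drives cytokinesis, gave 11.54, 11.66 and 11.63 in ISL1 arrays, against 10.10, 10.20 and 9.96 in vector arrays. The lowest ISL1 array lay above the highest vector array in both. Of 39 DNA replication genes 38 were higher, with a median of 0.77 and 35 past the test against 1.2-fold. The primase gene Prim1 was higher by 1.47 ± 0.137, the replicative helicase gene Gins1 by 1.28 ± 0.144 and the thymidine kinase gene Tk1 by 1.28 ± 0.080. Inhibitors of the cycle and targets of p53 were mixed, with 7 of 30 higher (23.3%) and 9 lower (30.0%), where 10.4% of all genes were lower. Against 1.2-fold 4 were higher and 2 lower.

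Most measured genes of ribosome assembly were also higher, and 11 of 28 of those of respiration, where 15.3% of all genes were higher. Of 29 ribosome biogenesis genes 23 were higher, with a median of 0.35; 6 passed the test against 1.2-fold. Dkc1, the pseudouridine synthase of the small nucleolar particle, was higher by 0.71 ± 0.091 and Mybbp1a, a nucleolar protein, by 0.62 ± 0.081. Of 28 respiratory chain genes 11 were higher, with a median of 0.18, and the count was 18 with a trended and robust variance estimate. The largest of these differences, 0.42 for the cytochrome gene Cyc1, did not pass the test against 1.2-fold.

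Interferon-stimulated genes formed another rising group, where 15.3% of all genes were higher and 10.4% lower. Of 32 measured, 25 were higher, 11 by at least 2-fold, with a median of 0.73, and 18 passed the test against 1.2-fold. The mean over the list was 9.34 to 9.52 in ISL1 arrays, against 8.58 to 8.62 in vector arrays. Usp18, which removes the ubiquitin-like modifier ISG15, gave 11.24, 10.98 and 10.78 in ISL1 arrays, against 8.76, 8.90 and 8.89 in vector arrays. Rtp4, an interferon-induced chaperone of receptors, gave 10.00, 9.97 and 10.02 in ISL1 arrays, against 7.91, 7.72 and 7.80 in vector arrays. Ifit1, which binds foreign RNA ends, gave 10.42, 10.20 and 9.72 in ISL1 arrays, against 8.15, 8.30 and 8.46 in vector arrays, so the ISL1 arrays spread more widely here than in Rtp4. Trim30a and Trim30d, neighbouring members of 1 family, were higher by 1.81 ± 0.129 and 2.40. Among 42 chemokines, cytokines and receptors 11 were higher and 7 lower (4 lower without vector replicate 1), and against 1.2-fold the counts were 6 and 3. The monocyte chemokine gene Ccl2 gave 12.58, 12.62 and 12.70 in ISL1 arrays, against 10.98, 10.98 and 10.75 in vector arrays, while Cxcl15 was lower by 2.41 ± 0.162. Of 19 complement and acute phase genes 8 were lower (3 against 1.2-fold) and 1 higher, with the C1 inhibitor gene Serping1 lower by 2.24 ± 0.122. Retinoid genes had 6 of 21 lower and 1 higher, with Rarres2, the gene of chemerin, lower by 2.10 ± 0.092 and the retinal reductase gene Dhrs3 by 2.08 ± 0.099.

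**Figure D3:**
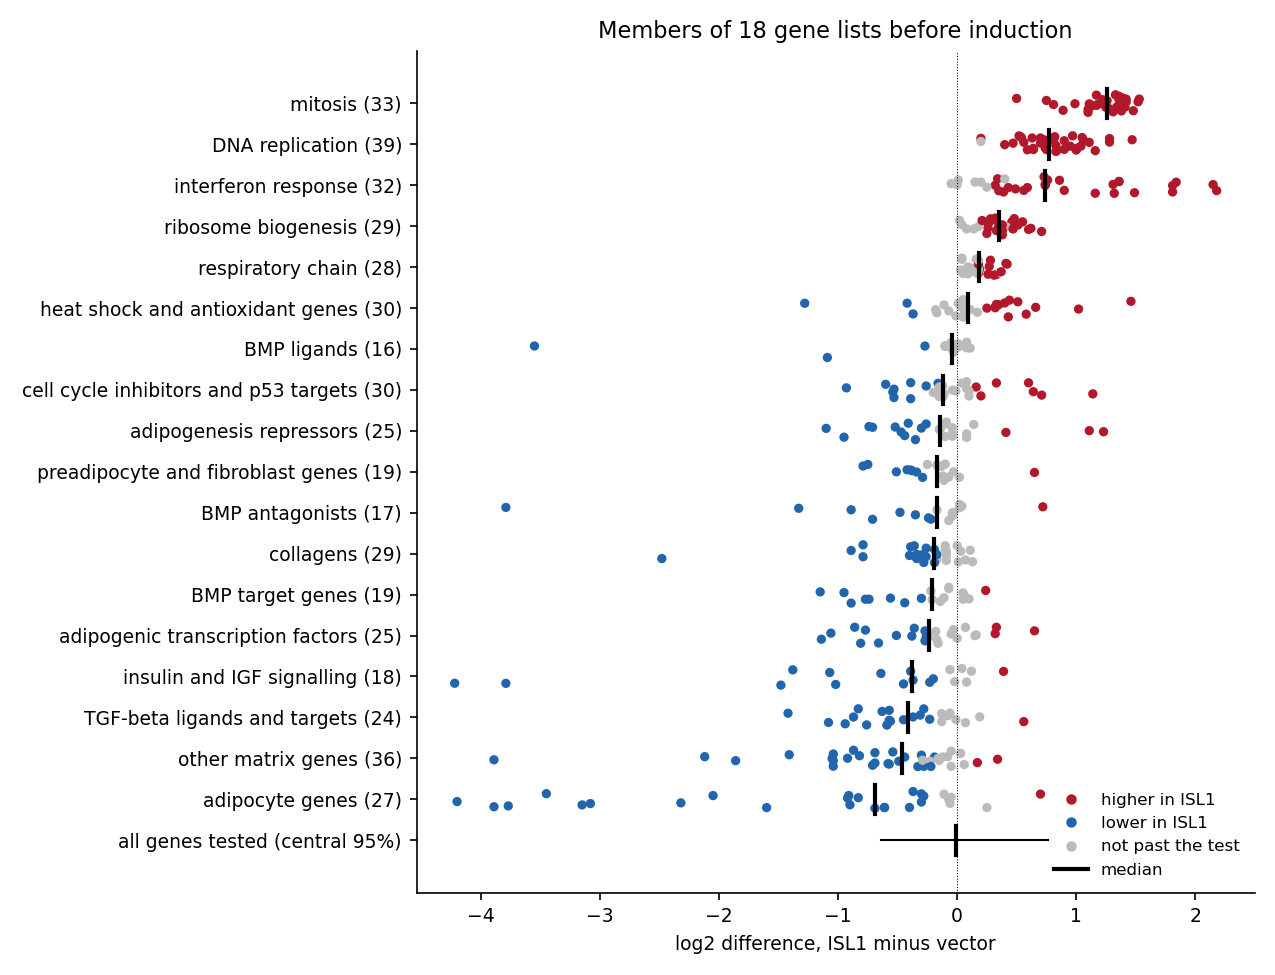
Log2 difference, ISL1 minus vector (x axis), of each member of 18 gene lists (rows, number measured in brackets) before induction; red and blue points are called higher and lower in ISL1, grey points are not past the test, and the black bar is the median (the row of BMP ligands includes Bmp1). The bottom row gives the central 95% and median of all genes; mitosis has the highest median at 1.26 and adipocyte genes the lowest at -0.69.

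Called genes were not spread evenly over the chromosomes. The shares over all genes were 15.3% higher and 10.4% lower. On chromosome 8, 31.8% of 955 genes were higher in ISL1 cells and 6.07% lower, and on chromosome 11, 26.2% of 1563 were higher and 5.5% lower. Chromosome 12 leaned the other way, with 5.98% of 652 genes higher and 25.5% lower, as did chromosome 16 with 6.48% of 648 higher and 21.3% lower. Chromosomes 4 and 19 also held more lower than higher genes (17.6% and 17.8% lower, 7.19% and 9.04% higher). The medians of chromosomes 8 and 12 were 0.079 and -0.097. Genes on a chromosome are not independent.

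Neighbouring genes also moved in blocks. The longest unbroken run of called genes in 1 direction was on chromosome 11, where 9 neighbours (Fbxo48, Plek, Cnrip1, Ppp3r1, Pno1, Wdr92, C1d, Etaa1 and Meis1) were all higher, with a median of 0.85; Plek and Meis1, the smallest at 0.33 and 0.24, lost the call when 1 array was left out (for Plek ISL1 replicate 3 or vector replicate 1, for Meis1 ISL1 replicate 1 or 2 or vector replicate 2). A run of 6 on chromosome 3 held Rxfp1 and had a median of 1.30, with the neighbours Tmem144 and Gask1b higher by 1.41 ± 0.087 and 1.73 ± 0.094. A run of 6 on chromosome 10 (Eea1, Btg1, Dcn, Lum, Kera and Epyc) was lower and held Lum; its median was -0.60, and Eea1 lost its call without vector replicate 1. A run of 6 on chromosome 2 was higher, with a median of 0.68. Beside Lipi, the next gene Rbm11 was higher by 0.93 and Hspa13 after it did not pass the test at 0.19 (both picked for their place).

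Several of the largest falls lay together further along chromosome 10, in a stretch picked after the values were seen. Across 17267 windows of 11 neighbouring genes (those with a mean signal of at least 6 in either group), the median difference within a window ran from -1.52 to 0.74, and the lowest window ended at Lyz2 in this stretch. Between Rab3ip and Mdm1, 12 of 17 genes were lower and 2 higher, with a median of -1.25. Lyz2, the lysozyme gene of macrophages, gave 7.44, 7.07 and 7.12 in ISL1 arrays, against 12.10, 12.03 and 12.03 in vector arrays, the largest fall among all genes tested. Lrrc10, a leucine-rich repeat gene known from heart muscle, gave 7.30, 7.52 and 7.28 in ISL1 arrays, against 11.49, 11.38 and 11.34 in vector arrays. Genes that most cells express shifted with them, including the chaperonin subunit Cct2 by -1.16, the chromatin reader Yeats4 by -2.21, the nucleoporin Nup107 by -1.25 and the small GTPase Rap1b by -1.24. Mdm2, the p53 ubiquitin ligase, and Slc35e3 lie among them and did not follow, at 0.16 and 0.45; their mean signals were 13.73 and 13.63 in ISL1 arrays, against 13.57 and 13.17 in vector arrays. On the same chromosome, 8.5 Mb ahead of this stretch (GRCm38.p6), the neighbours Ptprq, Otogl, Ppp1r12a and Pawr were lower by 3.92, 2.46, 1.85 and 0.86. Of the 35 genes between Pawr and Rab3ip 7 were higher, including Caps2 at 1.52 and Nav3 at 0.88, and 2 were lower, with a median of 0.03. Of the 17 other macrophage and blood cell markers measured, 1 was lower (Cd14, at -0.45 ± 0.083) and 1 higher, with a median of -0.03; the higher one, Ncr1, lost its call without any of 4 arrays (each ISL1 array and vector replicate 1).

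**Figure D4:**
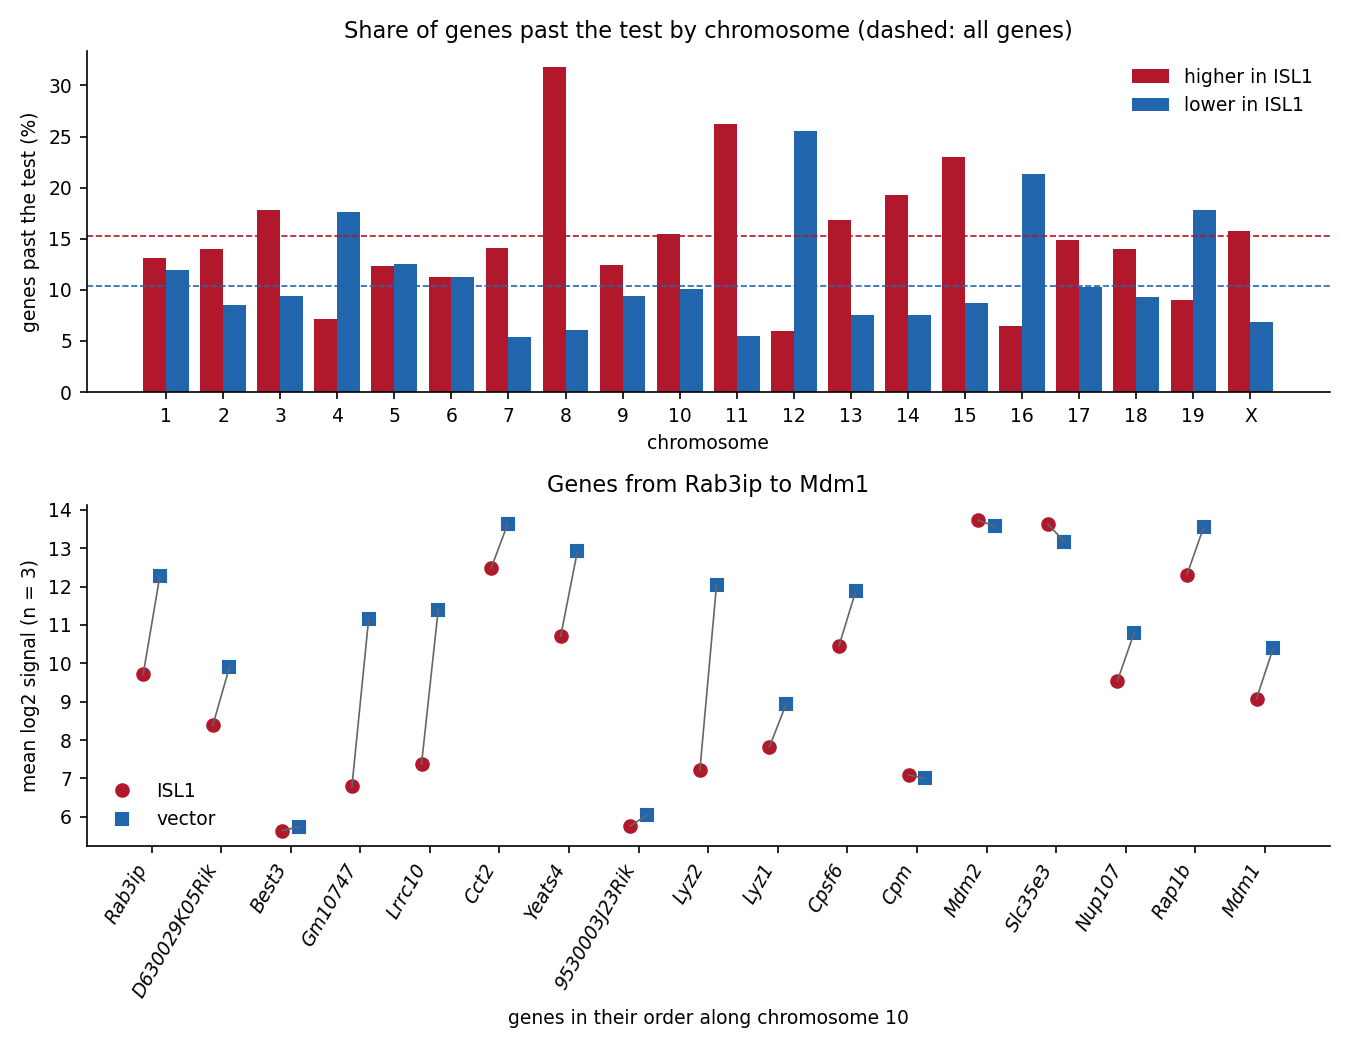
Top: the percentage of genes on each chromosome called higher (red, left bar) or lower (blue, right bar) in ISL1 before induction, with the shares over all genes, 15.3% and 10.4%, as dashed lines. Bottom: mean log2 signal (n = 3) of 17 genes in their order along chromosome 10, ISL1 as red circles and vector as blue squares; 12 are lower in ISL1, while Mdm2 and Slc35e3 are not.

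The probe sets of microRNA genes cannot tell a precursor from the mature form. Of 300 measured, 10 were higher (3.33%) and 17 lower (5.67%), against 15.3% and 10.4% of all genes. In 184 of the 300 a group mean reached 6, and 9 of those were higher and 13 lower; 3 of the called ones changed at least 2-fold. Mir218-1 gave 8.47, 8.29 and 8.23 in ISL1 arrays, against 10.30, 9.63 and 9.68 in vector arrays, and it lies within Slit2, which was lower too (above). Mir224 was higher by 1.06 ± 0.182 and Mir452 by 1.02 ± 0.129. The means of Mir452 were 6.38 in ISL1 arrays and 5.36, under 6, in vector arrays. Mir224 and Mir452 both lie within Gabre, a GABA receptor subunit gene picked for that reason, which was higher by 1.26 ± 0.092. The RefSeq mature sequences (GRCm38.p6) of these 3 genes are given 5′ to 3′ with the seed, bases 2 to 8, in capitals, because these are the microRNA genes past 2-fold; no 2 of the 6 share a seed.
mmu-miR-218-5p (chr5:48223966-48223986, + strand): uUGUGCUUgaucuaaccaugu
mmu-miR-218-1-3p (chr5:48224005-48224026, + strand): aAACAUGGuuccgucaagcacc
mmu-miR-224-5p (chrX:72261085-72261105, - strand): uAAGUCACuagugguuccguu
mmu-miR-224-3p (chrX:72261037-72261058, - strand): aAAUGGUGcccuagugacuaca
mmu-miR-452-5p (chrX:72262271-72262292, - strand): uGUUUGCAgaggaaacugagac
mmu-miR-452-3p (chrX:72262235-72262256, - strand): uCAGUCUCaucugcaaagaggu

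The same contrast can be read at 48 h, but there the Isl1 signal opposes the labels. The 3 arrays with the ISL1 title averaged 7.65 ± 0.306 and the 3 with the vector title 12.76 ± 0.036 (SD). Directions at 48 h are therefore given as labelled, and no array was reassigned. The 2 contrasts share no array. At 48 h 5553 genes were called (27.9%), and the contrast as labelled differed between 48 h and 0 h for 5778 genes (29.0%). A gene that followed the Isl1 signal equally at both times would be counted in that difference. The count is therefore not read as a change of the ISL1 effect. Of the 5119 genes called at 0 h, 1613 were called in the opposite direction at 48 h as labelled (31.5% of the 0 h calls and 29.0% of the 48 h calls) and 1184 in the same direction. Across all genes the differences correlated at -0.31 (Pearson, with genes not independent).

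The gene groups split in whether their sign as labelled was the same at both times. Of the 211 genes at least 2-fold lower at 0 h, 139 had the opposite sign at 48 h as labelled, 15 the same and 57 were not called. Of the 296 at least 2-fold higher at 0 h, 121 had the opposite sign, 130 the same and 45 were not called. Grb10, Igf2 and Adipoq, lower by 4.22, 3.79 and 4.20 at 0 h, differed by 4.01, 3.95 and 3.61 at 48 h as labelled. Lipi and Rxfp1 differed by -6.95 and -3.86 at 48 h as labelled, opposite to their rises at 0 h, as Isl1 did at -5.11. Of 27 adipocyte genes 22 were higher at 48 h as labelled, with a median of 1.07, opposite in sign to 0 h. Cell division lists had the same sign at both times as labelled. At 48 h 30 of 33 mitosis genes and 37 of 39 DNA replication genes were higher, with medians of 0.63 and 0.81. The arrays with high Isl1 signal at 48 h were those labelled vector. Set against Isl1 signal, most adipocyte genes were lower where Isl1 was high at both times. Most cell division genes were higher there at 0 h and lower there at 48 h. Interferon genes had 1 of 32 higher and 8 lower at 48 h as labelled, where 25 were higher at 0 h. Over all 19938 genes 2793 were higher and 2760 lower at 48 h as labelled. Bmp4, at 7.71 ± 0.152 in the arrays labelled ISL1, against 7.48 ± 0.238 in those labelled vector at 48 h, had an adjusted p of 0.110 in limma.

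**Figure D5:**
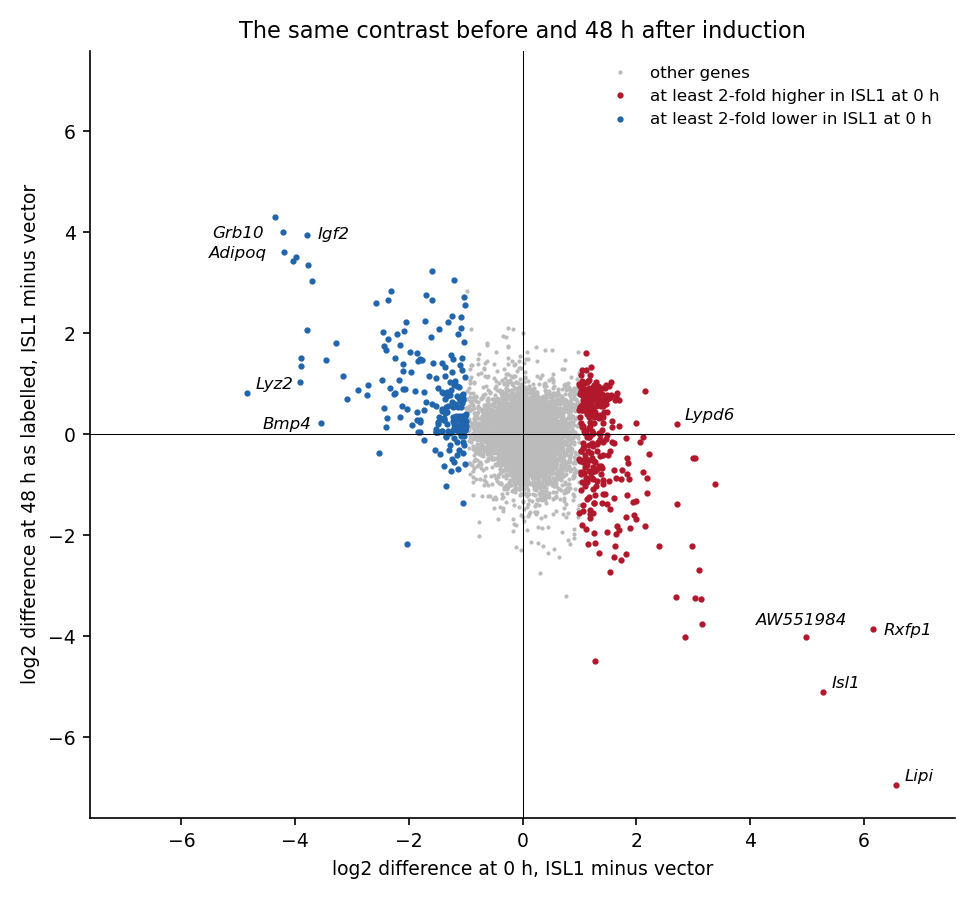
Each point is 1 gene: the x axis is the log2 difference, ISL1 minus vector, at 0 h and the y axis is the same difference at 48 h as labelled. Genes at least 2-fold lower in ISL1 at 0 h (blue) lie mostly above 0 on the y axis (139 of 211 called there), while those at least 2-fold higher (red) fall on both sides; Isl1 lies at 5.29 and -5.11.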

How the data were processed

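RNA of 27 samples in 9 groups of 3 was hybridised, 1 array per sample, to an Affymetrix mouse gene array. The deposited values are log2 signals per probe set, made by the authors with RMA, per the submitters' processing notes (background correction, normalization between arrays and probe set summary); its version and the genome build were not stated in those notes. Because RMA scales arrays to a common distribution, a shift shared by most genes would not show, and depth has no meaning for arrays.

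Of 28853 probe sets, 21789 carried 1 gene symbol, 1621 several and 5443 none; 21698 matched RefSeq GRCm38.p6 by Entrez ID and took its symbol. For 999 genes with several probe sets the brightest was kept, leaving 19938 genes. A linear model with 1 mean per group over all 27 arrays was fitted in limma 3.58.1 (R 4.3.3; lmFit, eBayes), with 18 residual and 6.56 prior degrees of freedom and Benjamini-Hochberg adjustment; a gene was called at an adjusted p under 0.05. limma's treat tested against a 1.2-fold change. The script was tested on simulated data. Alternatives were other sets of arrays, scalings, filters, probe set rules and variance estimates, the replicate number as a block, and each array left out.

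Genes were named by a rule: Isl1, Bmp4, Pparg and the C/EBP genes, the 20 largest rises and falls whose groups did not overlap (predicted, olfactory and similar gene names left out), the 6 largest calls and 2 largest opposite calls of each of 47 lists, all members of 6 short lists, microRNA genes changed at least 2-fold and the longest chromosome runs; other genes named were picked after their values were seen. The members and lists were chosen with earlier results of these data known. Same-numbered ISL1 and vector arrays deviated from their group means together at 48 h (correlations 0.314, 0.547 and 0.217) and not clearly at 0 h (0.017, 0.060 and 0.060). 0 array pairs were identical. Chromosome order came from RefSeq and was used only for neighbourhood.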

Additional observations from a re-analysis of the deposited data

Results flagged for a closer look

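The ISL1 contrast differed between the times for 5778 genes in limma's test of the difference, 48 h as labelled minus 0 h. Isl1 itself had the difference -10.39, and no array was reassigned. Among the largest rises at 0 h the difference was -13.52 for Lipi, -10.03 for Rxfp1, -9.01 for AW551984, -6.89 for Epha6, -6.40 for Chl1, -6.28 for Lrrc4c, -5.79 for Agtr2, -4.36 for Lrrn3 and -3.51 for Ccdc141. Among the largest falls at 0 h it was 8.23 for Grb10, 7.81 for Adipoq, 7.74 for Igf2, 7.49 for Rab12, 7.46 for Lrrc10, 5.85 for Chrdl1, 5.65 for Lyz2, 5.41 for Car3, 5.25 for Lum and 4.95 for Ptprq. Bmp4 had a difference of 3.78, Cebpa 3.12, Pparg 0.83 and Cebpd 0.42. Since the genes were named partly for their 0 h values, and the 48 h labels are opposed by Isl1, these values describe the arrays as labelled; a cause was not tested.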

How the results depend on the processing

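Testing against a 1.2-fold change moved the counts most: 1664 genes were called at 0 h in place of 5119, 959 higher in place of 3047 and 705 lower in place of 2072, and likewise 1909 in place of 5553 at 48 h as labelled, 2624 in place of 5778 for the difference between the times, and 682 in place of 2797 called at both. The counts at 2-fold (296 higher, 211 lower) were the same under it, which says little, because a 2-fold change already lies well beyond 1.2-fold. Every other setting kept these counts within 1.5 times, and none of the alternatives run reversed a value. Quantile normalization gave 3064 higher and 2940 lower (51.0% higher in place of 59.5%), and the 6 arrays alone gave 3529 and 2463. With each array left out in turn, the 0 h total ran from 4287 to 4590, the higher count from 2456 to 2898 and the lower count from 1680 to 1929; the 2-fold counts ran from 286 to 308 and from 200 to 220, Isl1 from 5.2 to 5.35 and Bmp4 from -3.58 to -3.52. The 48 h count ran from 4916 to 5229, the difference from 5286 to 5718 and the count at both times from 2398 to 2715. With the replicate number as a block, 5100 genes were called at 0 h, or 5899 from the 6 arrays alone, 5534 at 48 h and 5767 for the difference; the block changed no other call count by over 1.5 times. The 0 h arrays share only a number by this check. Of 332 called genes that are named by the rule, 239 kept the call in all settings run, 93 lost it in at least 1 and 0 changed sign; 6 of the uncalled ones gained a call. What limits arrays is signal over background, which the deposited summaries do not give.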
